A study of Mus musculus with 4 samples.

Results

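The cells described here were barcodes from mouse medial ganglionic eminence (MGE) that held transcripts of both Nkx2-1 and Lhx6 together with transcripts of young neurons. Members were chosen by the values of 8 genes and by depth. A barcode was a member when it had at least 3000 UMIs (unique molecular identifiers, each 1 counted transcript molecule), a mitochondrial share of at most 10%, at least 3 UMIs of Nkx2-1, at least 1 of Lhx6, at least 3 of Stmn2, Gap43 and Mapt together, none of Maf or Zic1, and at most 1 of St18. There were 1411 members among 19032 barcodes past the UMI and mitochondrial limits, which is 7.41%. They were proposed as candidates for pallidal neurons, and they are called here by their rule, because their transcripts did not bear out that name as a whole.

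The question of the study was what loss of the transcription factor St18 does to the neurons that the MGE makes. MGE was dissected from e14.5 embryos of a C57/BL6 ICR mix, and single-cell libraries were made with 10x Genomics chemistry, 2 from St18(-/-) embryos (null) and 2 from WT embryos. Both genotypes came from heterozygous breeders, and MGE of each genotype was pooled before dissociation. The null allele carries a recombined deletion of floxed exons 9 and 10 in every cell of the animal, made with a germline E2a-Cre, and WT embryos were littermates. How many embryos a pool held, and their sex, was not stated, so p-values measure the spread between libraries, which may be partly technical. Replicates are numbered in the order of the samples, and values for the libraries are given in the order null replicate 1, null replicate 2, WT replicate 1 and WT replicate 2.

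The MGE is a ventral forebrain proliferative zone whose progenitors express the homeodomain factor Nkx2-1. Nkx2-1 switches on the LIM homeobox gene Lhx6, which later MGE neurons keep. Interneurons bound for the cortex switch Nkx2-1 off as they leave and take up factors such as Maf, Mef2c and Zeb2, whereas striatal interneurons and projection neurons of the globus pallidus and basal forebrain can keep it. Among neurons that stay ventral, Lhx8, Gbx1 and Isl1 mark cholinergic lineages, and Zic1 marks septal and ventral basal forebrain lineages. Prototypic pallidal neurons carry Etv1 and Lhx6 and, later, Pvalb.

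The member counts were 560, 240, 298 and 313. Starting from 2954, 1925, 1844 and 1935 Lhx6 neurons (Lhx6 at least 1, Stmn2, Gap43 and Mapt together at least 3), the Nkx2-1 limit left 1346, 954, 696 and 770 cells. Removing cells with Maf left 834, 493, 501 and 594, and removing those with Zic1 left 586, 327, 344 and 375. The St18 limit removed 26, 87, 46 and 62 of these, so it took the largest number in null replicate 2. No member barcode was shared between libraries, although pairs of libraries shared 4 to 11 barcodes among all those past the limits (2.29 to 4.40 if barcodes were drawn at random).

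Null replicate 2 stood apart from null replicate 1, and this was seen before any comparison of the members. St18, the targeted gene, was at 21.9, 63.9, 39.2 and 54.1 CPM in all Lhx6 neurons (CPM, UMIs of the gene summed over the cells of a class per 1000000 UMIs of those cells), so null replicate 2 had the highest level of the 4 libraries. These 3′ UMIs do not check the deletion, because a transcript without the 2 exons can still be counted. Among members 164 and 147 cells of the null libraries carried at least 3 UMIs of Xist, the RNA that coats the inactive X chromosome, and none of the Y-linked genes, against 0 and 0 in WT, so WT pools were male by this measure and null pools were mixed. Genotype and sex therefore cannot be told apart in full, and results are also given for male cells or without null replicate 2 where that changes them.

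Median depth of the members was 8617.5, 11250.5, 7553.5 and 6892 UMIs, and 3142, 3758, 2800.5 and 2663 genes. Members were deeper than Nkx2-1-negative Lhx6 neurons, which passed the same rule with Nkx2-1 at 0 and had medians of 5957, 7899, 5747 and 5558 UMIs. A minimum UMI count for Nkx2-1 takes deeper cells more often, and a comparison within 5000 to 12000 UMIs was run for that reason.

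Microglia-like cells were taken as a gauge of free RNA. They had at least 10 UMIs of microglial markers and should lack Nkx2-1 (21, 10, 14 and 23 cells with median depths of 8184, 17562, 7828 and 11286 UMIs). An Nkx2-1 UMI was present in 38.1%, 60%, 21.4% and 30.4% of them, but 3 or more were present in 1, 2, 0 and 0 cells, and none met the whole rule. Lhx6, of which the rule needs 1 UMI, was present in 19.0%, 40%, 7.14% and 8.70% of them, and exactly 1 Lhx6 UMI was held by 126, 30, 77 and 79 members. Stmn2 alone reached 3 UMIs in 4, 0, 1 and 4 of these cells. The limits for Nkx2-1, Lhx6 and the neuronal transcripts, taken singly, were thus each met by some microglia-like cells, that of Nkx2-1 in both null libraries. Whether these UMIs came from free RNA or from doublets with neurons was not tested.

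At the Nkx2-1 limit, 113, 40, 84 and 83 members held exactly 3 UMIs, and 145, 47, 120 and 130 cells that met the rest of the rule held 2. Cells just inside the limit had 489, 524, 616 and 664 CPM of Top2a, an enzyme that untangles DNA in dividing cells. Cells just outside had 458, 464, 425 and 337 CPM, and members with 5 or more Nkx2-1 UMIs had 1606, 1742, 1609 and 1538 CPM. Lhx8, in the same order of cells, was at 227, 201, 233 and 232 CPM at 3 UMIs and at 247, 99, 228 and 267 CPM at 2. In every library Top2a was higher in members with 5 or more Nkx2-1 UMIs than next to the limit. The Nkx2-1 limits are raw counts, which rise with depth, whereas Top2a and Lhx8 are given in CPM. Members with at least 5 UMIs of Top2a and Mki67, a second gene of dividing cells, had median depths of 10628, 14252.5, 9587 and 9758.5 UMIs. Members with none had 6278.5, 8523, 6254 and 5538 UMIs, so these values do not show that the level of Nkx2-1 goes with division.

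Members carried Nkx2-1 at 633, 629, 661 and 659 CPM and Lhx6 at 383, 445, 384 and 384 CPM, as the rule required. Dcx, a microtubule protein of migrating neurons, was at 419, 502, 418 and 410 CPM, and Gad2, which makes GABA, at 316, 286, 346 and 331 CPM. Transcripts of dividing cells stood beside these. Top2a was at 1291, 1493, 1281 and 1274 CPM and Mki67, a protein of proliferating nuclei, at 798, 1040, 631 and 598 CPM. In Nkx2-1 cells with no Stmn2, Gap43 or Mapt UMI (437, 244, 258 and 186 cells, taken as a progenitor-side reference) Top2a was at 1462, 1482, 1544 and 1466 CPM. The level in members was thus close to that of cells without the neuronal transcripts, and far above the 166, 437, 140 and 149 CPM of Nkx2-1-negative Lhx6 neurons. It was not particular to members among Nkx2-1 cells. Cells left out only for 1 Maf UMI had Top2a at 1223, 1012, 1274 and 1226 CPM. Those left out for 2 or more St18 UMIs had 1279, 1271, 1323 and 1016 CPM, and those with 1 Zic1 UMI had 911, 523, 1072 and 845 CPM.

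**Figure D1:**
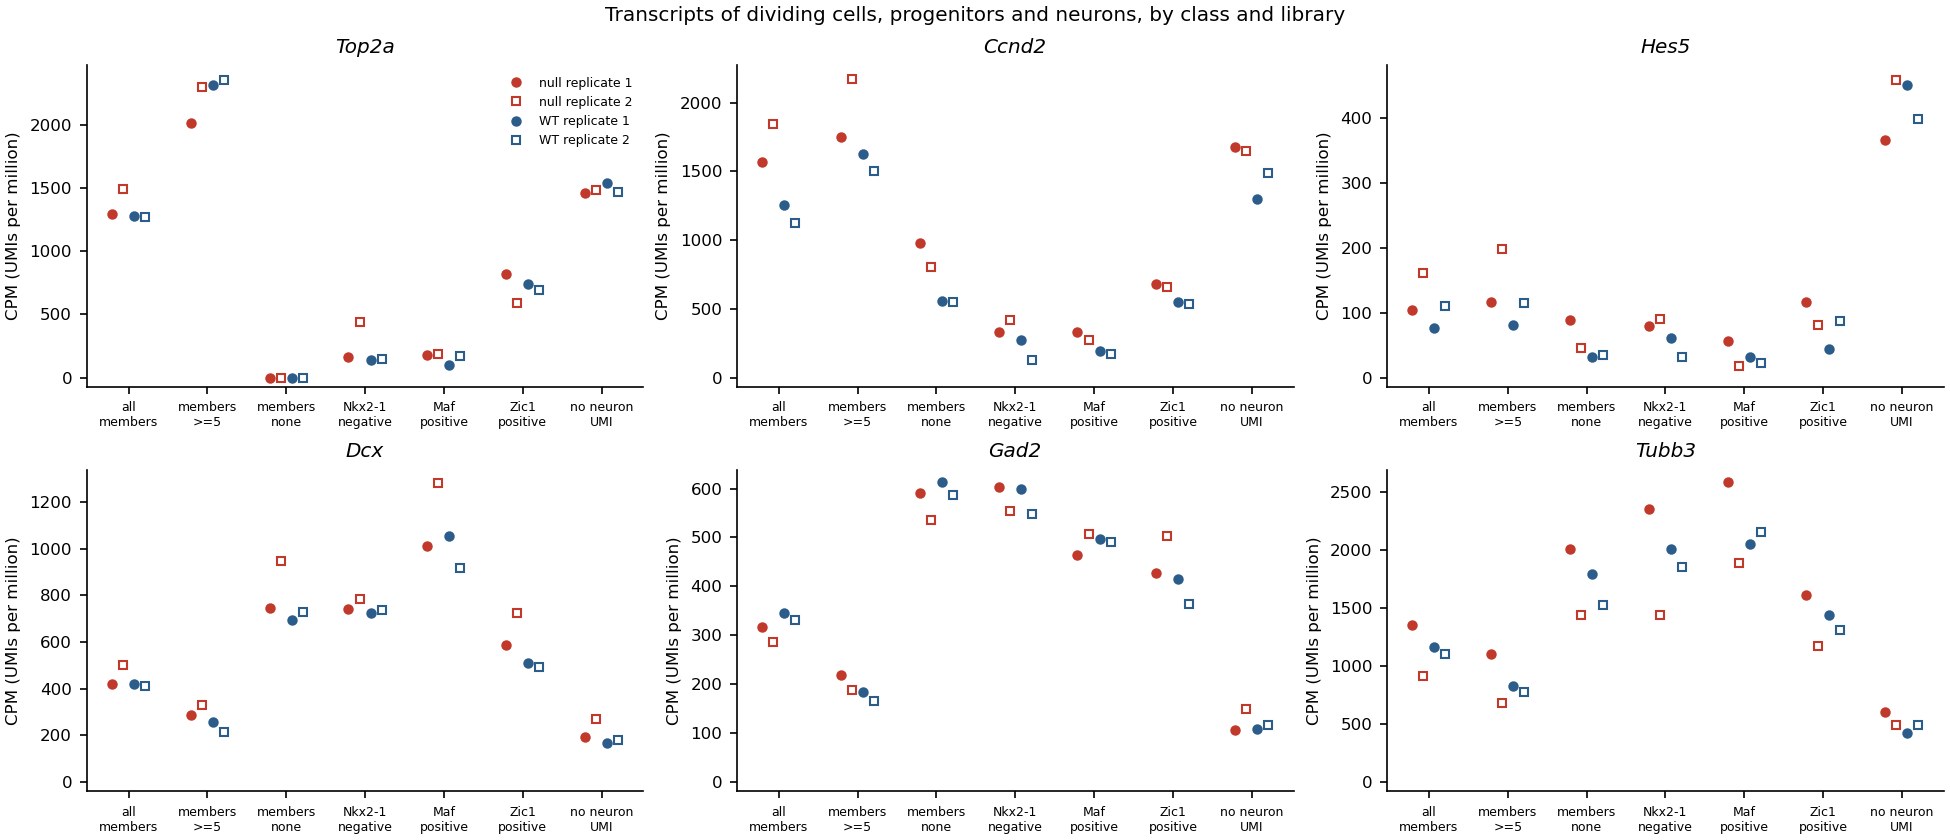
Levels in CPM of Top2a, Ccnd2, Hes5, Dcx, Gad2 and Tubb3 in each library, for all members, members with at least 5 or with no Mki67 and Top2a UMIs, the 3 comparison classes, and Nkx2-1 cells with no Stmn2, Gap43 or Mapt UMI; circles are replicate 1, squares replicate 2, red null and blue WT. Members as a whole lie near the last class for Top2a, and members with no Mki67 or Top2a UMI lie near the neuron classes for Gad2 and Dcx.

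The members split by these 2 transcripts. At least 5 UMIs of Mki67 and Top2a together were present in 285, 124, 129 and 124 members, or 50.9%, 51.7%, 43.3% and 39.6% (95% Clopper-Pearson intervals 46.7 to 55.1, 45.1 to 58.1, 37.6 to 49.1 and 34.2 to 45.3). None was present in 138, 46, 93 and 103 members, or 24.6%, 19.2%, 31.2% and 32.9%. The share with at least 5 was 7.14%, 12.3%, 4.57% and 5.95% in Nkx2-1-negative Lhx6 neurons and 63.2%, 64.8%, 63.2% and 57.5% in Nkx2-1 cells with no neuronal UMI. After each cell was thinned to 3000 UMIs, which none of these cells fell under, it was 36.6%, 37.9%, 35.9% and 32.9% in members and 3.81%, 7.97%, 2.29% and 2.70% in Nkx2-1-negative neurons. The highest doublet scores of a library held 11.2%, 5.65%, 6.98% and 7.26% of the members with at least 5 of these UMIs and 0.725%, 0%, 4.30% and 1.94% of those with none. Leaving such cells out was one of the alternatives, and the part of doublets in the split was not tested.

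None of Sox2, Hes5, Mki67 and Top2a was present in 20, 7, 29 and 30 members, which is 3.57%, 2.92%, 9.73% and 9.58%. A single UMI may be weak evidence here, because background droplets of under 100 UMIs held Top2a at 495, 462, 470 and 397 CPM. A Top2a UMI was also present in 52.4%, 70%, 42.9% and 34.8% of microglia-like cells and an Mki67 UMI in 47.6%, 20%, 7.14% and 21.7%. However, 6, 3, 1 and 6 of those cells held 3 or more Top2a UMIs and may divide themselves, so they do not measure free RNA of these 2 genes. In members the shares with a UMI were 69.5%, 74.6%, 59.4% and 59.4% for Top2a and 62.5%, 66.2%, 57.4% and 51.4% for Mki67. The neuronal side of the rule was met narrowly, with a median of 6, 5, 5 and 6 UMIs of Stmn2, Gap43 and Mapt together. Hes5, a Notch target of radial glia, was at 103, 162, 76.1 and 110 CPM in members. It was lower than in Nkx2-1 cells with no neuronal UMI, where every library was between 367 and 459 CPM.

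Members with no Mki67 or Top2a UMI had the neuronal transcripts at higher levels than members with at least 5. Dcx was at 744, 947, 692 and 727 CPM in the former, and Gad2 at 591, 535, 614 and 587 CPM, without overlap with the latter in any library. These levels sat beside those of Nkx2-1-negative neurons for Gad2 (603, 554, 600 and 549 CPM). Nkx2-1 itself was at 639, 671, 737 and 779 CPM there, a level that the limit of 3 UMIs per cell holds up. Because the split was made after the data were seen and uses 2 of the measured genes, the results below rest on all cells and are set beside those for cells with no Mki67 or Top2a UMI.

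The label check against pallidal transcripts gave a mixed result. Lhx8, a LIM homeobox factor of ventral MGE neurons, had a UMI in 51.4%, 52.9%, 53.0% and 53.0% of members (7.14% to 14.3% of microglia-like cells), and its level was 195, 158, 214 and 208 CPM. Etv1, an ETS factor of prototypic pallidal neurons, was at 64.2, 89.6, 69.1 and 77.5 CPM. Gbx1, a homeobox factor of basal forebrain, was at 4.49, 14.2, 14.0 and 11.6 CPM. Pvalb was at 0.187, 0, 0.411 and 0 CPM and Chat, which makes acetylcholine, at 0, 0.331, 0 and 0 CPM, so mature markers of pallidal and cholinergic neurons were at or near 0.

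**Figure D2:**
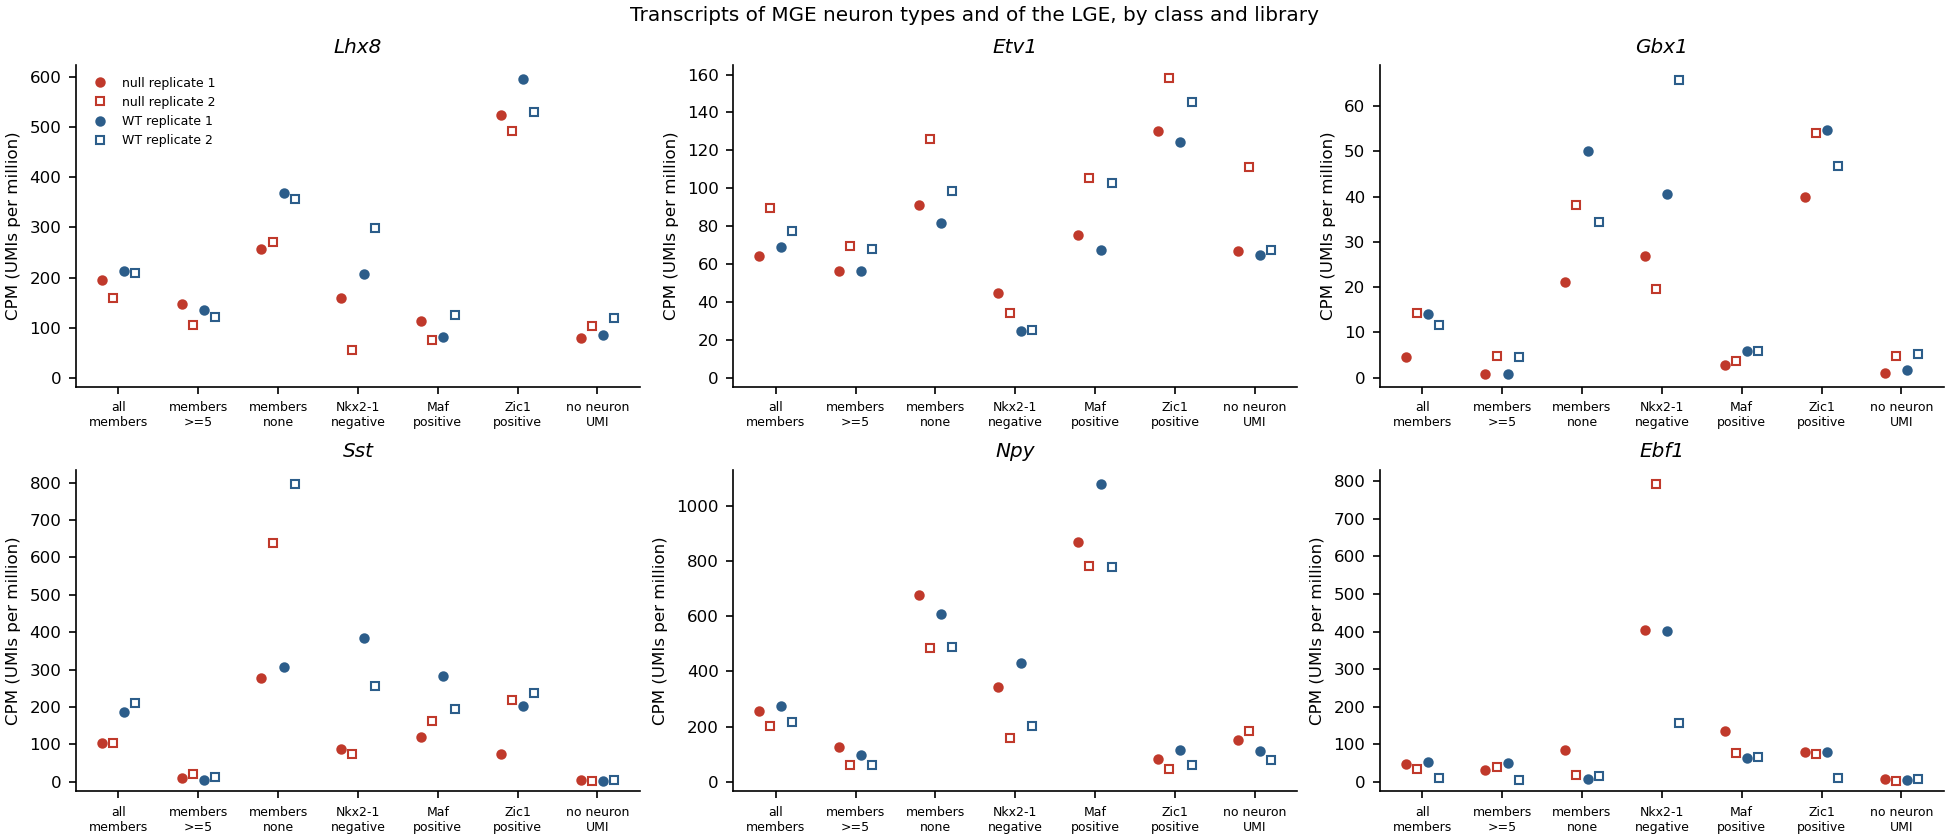
Levels in CPM of Lhx8, Etv1, Gbx1, Sst, Npy and Ebf1 in each library for the same 7 classes of cells, with circles for replicate 1, squares for replicate 2, red for null and blue for WT. Lhx8 and Etv1 are highest in Zic1-positive Nkx2-1 neurons, Npy is highest in Maf-positive Lhx6 neurons, and Ebf1 is highest in Nkx2-1-negative Lhx6 neurons.

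Markers of other cells moved with the classes, and their part in the results was not tested. Summed over the 6 LGE markers (lateral ganglionic eminence, the striatal zone next to the MGE), members had 444, 419, 385 and 305 CPM and Nkx2-1-negative Lhx6 neurons 1199, 2356, 1009 and 372 CPM. Erythroid markers were at 58.0, 57.9, 93.8 and 2450 CPM in members, so WT replicate 2 carried red-cell transcripts. Microglial markers summed to at most 2.06 CPM in members, with 2 or 3 of the 6 at 0 in each library. The 7 pallial excitatory markers summed to 695, 779, 705 and 624 CPM in members, of which Bcl11b, a factor that striatal neurons also carry, made up 694, 778, 704 and 621 CPM. Of these markers 3, 4, 5 and 3 were at 0, Neurod2 in every library.

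Members made up 19.0%, 12.47%, 16.2% and 16.2% of Lhx6 neurons (95% Clopper-Pearson intervals 17.6 to 20.4, 11.02 to 14.03, 14.51 to 17.92 and 14.56 to 17.89, for counting error only). The 2 WT libraries were nearly equal, and the 2 null libraries lay on either side of them. The means were 15.7% ± 4.59 (SD, n = 2) in null and 16.2% ± 0.0107 (SD, n = 2) in WT, a difference of −0.456 percentage points. A two-sided exact permutation test over libraries gave p = 1, in a design where 2 against 2 cannot go below 0.333. Without null replicate 2 the difference was 2.79 points and without null replicate 1 it was −3.70, so its direction rested on which null library was kept. With no limit on St18 the shares were 19.8%, 17.0%, 18.7% and 19.4%, and the null SD was 2.02 points in place of 4.59. The rule's own genes set this share, and its steps went opposite ways. The Nkx2-1 limit kept 45.6%, 49.6%, 37.7% and 39.8% of Lhx6 neurons, more in both null libraries. Maf at 0 kept 62.0%, 51.7%, 72.0% and 77.1% of those cells, fewer in both null libraries. The share is thus a net value of these steps and does not show that genotype left the members unchanged.

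**Figure D3:**
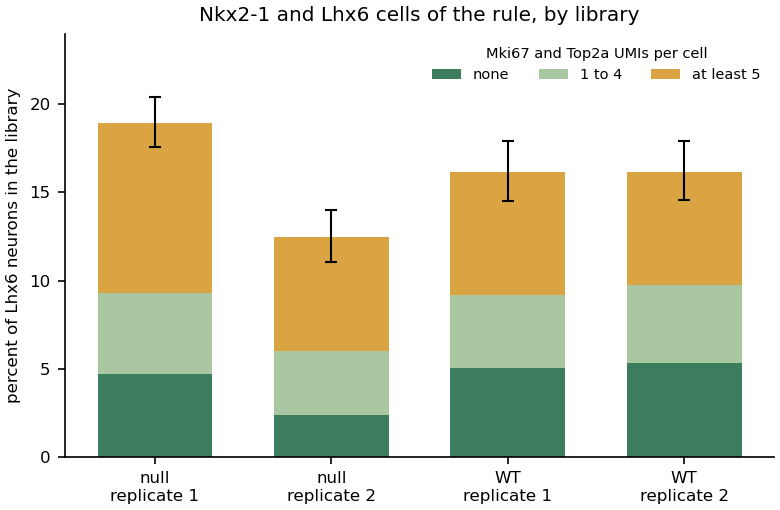
Share of members among Lhx6 neurons of each library in percent, split by the number of Mki67 and Top2a UMIs per cell, with 95% Clopper-Pearson intervals of the whole share. The WT bars are both at 16.2% and the null bars at 19.0% and 12.47%.

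Both parts of the members were counted in the same way. Those with no Mki67 or Top2a UMI were 4.67%, 2.39%, 5.04% and 5.32% of Lhx6 neurons, with both null libraries below both WT libraries (difference −1.65 points, exact permutation p = 0.333, the smallest this design allows). Those with at least 5 were 9.65%, 6.44%, 6.996% and 6.41%, and here the groups overlapped (difference 1.34 points, exact permutation p = 0.667). Null members were deeper, and both limits depend on depth. With each cell thinned to 3000 UMIs, none was present in a mean of 31.4% of null and 42.6% of WT members (21.9% and 32.1% unthinned). At least 5 were then present in 37.3% and 34.4% (51.3% and 41.5% unthinned).

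Against Nkx2-1-negative Lhx6 neurons, members were richer in transcripts of division and of progenitors and poorer in axonal and LGE transcripts. This comparison asks what goes with Nkx2-1 in cells that otherwise passed the same limits (1411 against 708 cells, summed per library). The classes were not alike in the neuronal transcripts of the rule. Stmn2, Gap43 and Mapt together had a median of 6, 5, 5 and 6 UMIs in members and 11, 12, 10 and 16 in Nkx2-1-negative neurons. The part of that difference in the results was not tested. Of 10688 genes tested, 4342 (40.6%) passed an adjusted p of 0.05 in edgeR's quasi-likelihood test with library as a block and Benjamini-Hochberg adjustment, 2128 (19.9%) higher and 2214 (20.7%) lower in members. Of the genes in the progenitor list, 9 of 13 were higher and 1 was lower (median log2 fold change 0.84, against −0.0085 over all genes). Top2a rose by 2.72 ± 0.17 on the log2 scale (SE). Prc1, which bundles the spindle midzone, was at 393, 499, 487 and 510 CPM in members and 49.5, 160, 42.4 and 37.6 CPM in the other class (log2 fold change 2.80 ± 0.23, edgeR adjusted p = 1.85e-07). Hes5 rose by 0.79 ± 0.16 over all cells, a call that was lost within 5000 to 12000 UMIs (0.58, edgeR adjusted p = 0.058), and it was at −0.12 in cells with no Mki67 or Top2a UMI.

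Genes of the axon and cytoskeleton list were lower in 18 of 18 cases (median log2 fold change −0.88). Ina, a neuronal intermediate filament, was at 114, 119, 101 and 130 CPM in members and 474, 536, 425 and 476 CPM in Nkx2-1-negative neurons (log2 fold change −2.02 ± 0.07, edgeR adjusted p = 2.72e-10). Nefl, a neurofilament subunit, was at 4.49, 6.61, 7.41 and 4.02 CPM against 49.5, 69.2, 19.8 and 51.7 CPM. Tubb3, the neuronal β-tubulin, fell by 0.72 ± 0.05. Among GABA neuron genes 3 of 9 were higher, with Dlx1 at 916, 912, 734 and 593 CPM against 446, 308, 317 and 257 CPM, and 3 were lower, with Gad2 falling by 0.83 ± 0.07.

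In cells with no Mki67 or Top2a UMI of both classes, the number of genes called fell to 547 of 7877 (6.94%), with 264 (3.35%) higher and 283 (3.59%) lower. The progenitor list then had 3 of 9 tested genes higher and 0 lower, and the axon list 0 higher and 11 of 18 lower (medians 0.52 and −0.37, against −0.00010 over all genes). Nefl, among the lower axon genes, passed the count filter only through the Nkx2-1-negative class and could only come out lower. Prc1 had a log2 fold change of 0.23 there, not past the threshold. The replication genes Mcm3 and Mcm2 stayed higher (2.37 ± 0.29 and 1.89 ± 0.28), with Mcm3 at 92.1, 54.7, 30.01 and 29.5 CPM against 12.5, 9.84, 13.4 and 4.10 CPM. Both genes passed the count filter there only through the members and could only come out higher. Their levels in members show that transcripts of cycling cells were not all removed by this limit. Gad2 was at −0.14 ± 0.08 (edgeR adjusted p = 0.38). Ccnd2, the cyclin D of MGE intermediate progenitors, was still higher, at 981, 806, 554 and 549 CPM against 176, 250, 167 and 81.9 CPM (log2 fold change 2.14 ± 0.13, edgeR adjusted p = 1.7e-12). Sox2 rose by 0.52 ± 0.11 in those cells. In the fewer cells with none of Sox2, Hes5, Mki67 and Top2a, where edgeR called 64 of 4044 genes (1.58%), the calls over all cells for Tubb3 (−0.20), Mef2c (−0.48), Epha5 (−0.71), Tle4 (−0.63) and Rnd2 (1.46) were lost.

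Sfta3-ps and Mbip, 2 genes of the same chromosome that were picked after their values were seen, were higher in members, and other genes of the interval were not examined. Nkx2-1 lies on chromosome 12 from 56531958 to 56536908 (GRCm38, minus strand). Sfta3-ps, a noncoding transcript on the same strand from 56488321 to 56529427, starts 2530 bases past its 3′ end. Sfta3-ps was at 157, 209, 149 and 131 CPM in members and 34.2, 15.5, 27.3 and 31.9 CPM in Nkx2-1-negative neurons (log2 fold change 2.58 ± 0.17, edgeR adjusted p = 2.27e-08). Mbip, which encodes a kinase inhibitor, 186063 bases away from 56328303 to 56345894, was at 125, 130, 153 and 175 CPM against 45.1, 39.9, 42.4 and 48.9 CPM (log2 fold change 1.74 ± 0.10). Neither pair of classes overlapped, and in cells with no Mki67 or Top2a UMI the log2 fold changes were 2.76 ± 0.18 and 1.87 ± 0.16. Whether reads of Nkx2-1 entered the count of Sfta3-ps was not tested.

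The pallidal list was split. Over all cells 2 of its 9 tested genes were higher and 5 were lower (median log2 fold change −1.07). Etv1 was at 64.2, 89.6, 69.1 and 77.5 CPM in members against 44.4, 34.2, 24.5 and 25.4 CPM (log2 fold change 1.21 ± 0.16, edgeR adjusted p = 1.68e-05). Lmo3, a LIM-only cofactor, rose by 0.46 ± 0.11. Gbx1 fell by 1.76 ± 0.26, Tle4, a Groucho corepressor, fell by 1.18 ± 0.15 and Zfp503, a zinc finger gene also strong in the LGE, fell by 3.46 ± 0.39.

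Lhx8 was at 195, 158, 214 and 208 CPM in members against 159, 54.5, 206 and 299 CPM in Nkx2-1-negative neurons, so the classes overlapped (log2 fold change 0.26 ± 0.19, edgeR adjusted p = 0.298). In cells with no Mki67 or Top2a UMI it was at 257, 271, 368 and 358 CPM against 172, 49.2, 206 and 289 CPM and was called higher (0.81 ± 0.16, edgeR adjusted p = 8.22e-04). In those cells Etv1 had a log2 fold change of 1.69 ± 0.21 and Lmo3 of 1.13 ± 0.13, both called, while Gbx1 was at −0.40 ± 0.25 and not called (edgeR adjusted p = 0.447). The list there had 3 of 9 genes higher and 2 lower. Zfp503, among those lower, passed the count filter there only through the Nkx2-1-negative class and could only come out lower. Over all cells, leaving out WT replicate 2 brought the Lhx8 difference past the threshold (0.53) and leaving out null replicate 2 turned it to −0.03. With all 4 libraries it was also called when no filter on low counts was used (0.31, edgeR adjusted p = 0.00227).

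Genes of the list of arkypallidal and LGE neurons were lower in members than in Nkx2-1-negative neurons (arkypallidal neurons are the pallidal class that projects back to the striatum), with 9 of 9 tested genes called over all cells (median log2 fold change −2.49) and 7 of 8 in cells with no Mki67 or Top2a UMI, with Foxp1 not past the threshold. The arkypallidal factors Npas1 and Foxp2 were among them. Npas1 was at 2.06, 0.992, 1.23 and 2.01 CPM in members against 11.6, 13.03, 4.71 and 7.52 CPM (log2 fold change −2.51 ± 0.40), and Foxp2 at 16.6, 22.2, 17.7 and 12.9 CPM against 54.6, 100.1, 69.8 and 45.1 CPM (−1.91 ± 0.13). In neither gene did the classes overlap. Ebf1, a striatonigral factor, was at 48.3, 33.1, 52.7 and 8.84 CPM in members and 405, 792, 403 and 157 CPM in the other class (log2 fold change −3.54 ± 0.20, edgeR adjusted p = 6.84e-09). Isl1 was at 21.9, 13.2, 15.2 and 15.3 CPM against 156, 190, 117 and 38.5 CPM. Tac1, the substance P precursor, was at 2.81, 1.32, 2.06 and 3.21 CPM against 18.2, 4.88, 51.8 and 11.3 CPM (−2.95 ± 0.38). Over all cells, Npas1 and Tac1 passed the count filter only through the Nkx2-1-negative class. In cells with no Mki67 or Top2a UMI, at least Isl1 and Tac1 did so. Such genes could only come out lower, so their direction adds no support to either count of called genes. Meis2 fell by 0.84 ± 0.27 over all cells, a call that was lost without null replicate 1, null replicate 2 or WT replicate 1 (−0.78, −0.39 and −0.91). The largest decrease was in Cxcl14, a chemokine, at 0.935, 0, 0.823 and 1.20 CPM against 12.4, 11.4, 24.5 and 57.3 CPM. Cxcl14 also passed the count filter only through the Nkx2-1-negative class and could only come out lower. In Nkx2-1-negative Lhx6 neurons Ebf1, Isl1 and Meis2, like the summed LGE markers, were highest in null replicate 2 and lowest in WT replicate 2, whereas Tac1 was lowest in null replicate 2 and highest in WT replicate 1. Against the other classes the list went both ways, with 3 of 7 tested genes higher (Foxp1, Meis2 and Six3) and 3 lower against Maf-positive neurons, and 2 of 6 higher and 3 lower against Zic1-positive neurons.

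**Figure D4:**
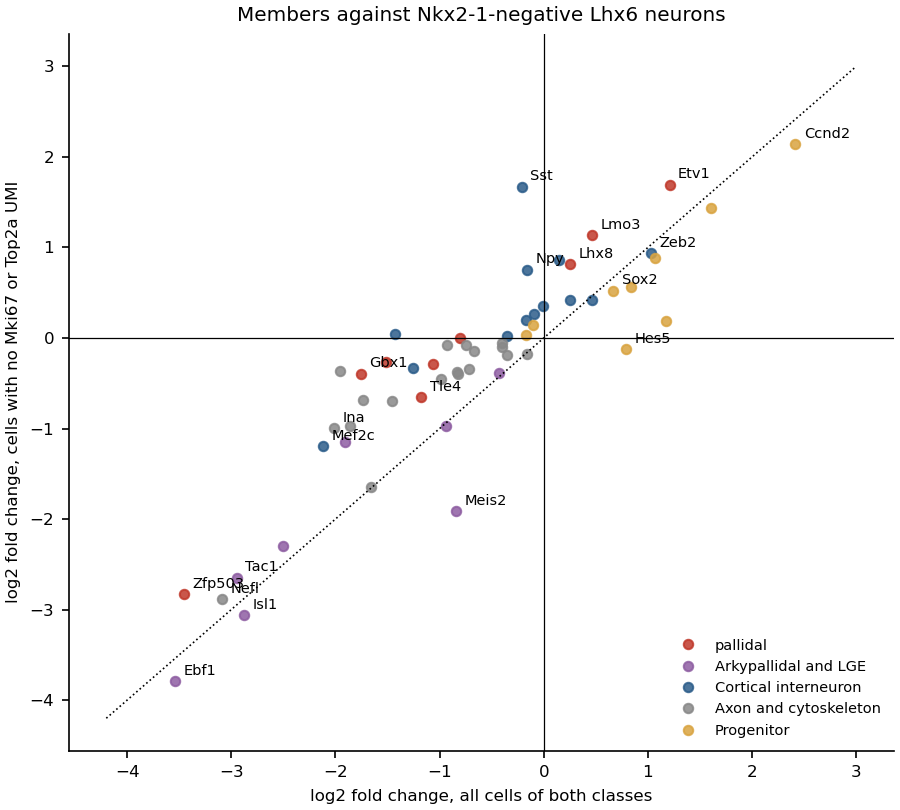
Log2 fold change of the tested list genes in members against Nkx2-1-negative Lhx6 neurons, over all cells (horizontal axis) and over cells with no Mki67 or Top2a UMI (vertical axis); each point is 1 gene, coloured by its list, and the dotted line marks equal values. LGE genes such as Ebf1 and Isl1 are lower on both axes, while Sst, Npy and Lhx8 are near 0 on the horizontal axis and at 1.67, 0.75 and 0.81 on the vertical one.

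Of the cortical interneuron list 2 of 14 genes were higher and 4 were lower over all cells (median log2 fold change −0.16). Zeb2, a zinc finger factor of MGE interneurons, was at 528, 621, 401 and 423 CPM in members and 281, 329, 223 and 161 CPM in Nkx2-1-negative neurons (log2 fold change 1.03 ± 0.09, edgeR adjusted p = 1.86e-07). Mef2c, a factor of parvalbumin interneuron precursors, fell by 2.12 ± 0.15. Among cells with no Mki67 or Top2a UMI, 5 of 13 were higher and 1, Mef2c, was lower. There Npy, a neuropeptide, was at 676, 485, 607 and 489 CPM in members against 436, 264, 470 and 201 CPM (log2 fold change 0.75 ± 0.11, edgeR adjusted p = 1.15e-05), whereas over all cells it was at −0.16 ± 0.12. Sst had log2 fold changes of 1.67 ± 0.23 and −0.21 ± 0.17 in the same 2 settings, and it came from few cells (given with the genotype comparison).

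Of the CGE list (caudal ganglionic eminence), Prox1 was the 1 gene higher of 6 tested, at 124, 168, 101 and 92.8 CPM against 52.4, 50.5, 19.8 and 21.6 CPM, and the other 5 were lower, with Nr2f2 falling by 1.34 ± 0.19. Guidance genes were higher in 8 of 27 cases and lower in 16. Slit1, a repellent ligand, was at 32.4, 37.0, 25.5 and 29.7 CPM in members and 6.55, 9.77, 9.43 and 8.46 CPM in the other class. Epha5, an ephrin receptor, fell by 1.88 ± 0.09, and Rnd2, a small GTPase of migrating neurons, rose by 0.57 ± 0.11. In cells with no Mki67 or Top2a UMI 4 of 22 guidance genes were higher and 3 were lower.

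Against Maf-positive Lhx6 neurons, which lacked Nkx2-1 UMIs and carry the factor of cortex-bound interneurons (1089 cells), members were lower in the genes of the cortical interneuron list. The test called 5188 of 10919 genes (47.5%), 2634 (24.1%) higher and 2554 (23.4%) lower in members. The interneuron list had 15 of 15 genes lower (median log2 fold change −1.75, against −0.024 over all genes). Some of these were too low to be tested within members alone and passed the count filter through the Maf-positive class, so they could only come out lower. In cells with no Mki67 or Top2a UMI 11 of 14 were lower and 1, Sst, was higher (1.18). There 984 of 8374 genes were called (11.8%), 6.36% higher and 5.39% lower. Erbb4, the neuregulin receptor, was at 46.4, 50.3, 29.6 and 62.3 CPM in members and 371, 489, 327 and 446 CPM in Maf-positive neurons (log2 fold change −3.12 ± 0.07, edgeR adjusted p = 7.77e-27). Mef2c fell by 3.29 ± 0.10 and Npy by 1.89 ± 0.05. The call for Sst was lost within 5000 to 12000 UMIs (−0.09, edgeR adjusted p = 0.42) and with no library block (−0.32, 0.43).

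The largest decreases among the named genes of that comparison were in Epha5 (117, 129, 86.8 and 133 CPM against 1660, 2055, 1831 and 1288 CPM), Efcab6, Nxph1, a neurexin ligand that is also in the interneuron list, and Dlgap1, a postsynaptic scaffold. Their log2 fold changes were −3.88 ± 0.08, −3.76 ± 0.15, −3.46 ± 0.13 and −3.43 ± 0.13. The largest increase was in Lmo1, a LIM-only cofactor, at 417, 344, 348 and 437 CPM against 47.4, 26.5, 31.1 and 30.7 CPM (log2 fold change 3.43 ± 0.08, edgeR adjusted p = 1.53e-26). It stayed higher in cells with no Mki67 or Top2a UMI (165, 119, 107 and 113 CPM against 42.6, 14.3, 20.7 and 24.9 CPM).

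Pallidal list genes stood higher against Maf-positive neurons than against Nkx2-1-negative ones in several cases, though no test of that difference was run and both comparisons share the member libraries. Lhx8 was at 195, 158, 214 and 208 CPM against 113, 74.2, 81.3 and 125 CPM (log2 fold change 0.96 ± 0.08, edgeR adjusted p = 1.72e-12). In cells with no Mki67 or Top2a UMI its log2 fold change was 1.63 ± 0.10. Gbx1 had a log2 fold change of 1.25 ± 0.29 over all cells. Without Mki67 or Top2a UMIs it was at 21.2, 38.1, 50.02 and 34.4 CPM against 3.16, 1.10, 7.87 and 1.56 CPM (3.17 ± 0.36, edgeR adjusted p = 9.16e-15). Over all cells the list had 3 of 9 genes higher and 4 lower, and in cells without those transcripts 5 of 8 higher and 1, Robo2, lower. In the latter cells Gbx1 passed the count filter only through the members. It could only come out higher there, so its direction adds no support to that count. Etv1 was called lower over all cells (−0.23 ± 0.09, edgeR adjusted p = 0.0296), a call lost without null replicate 1, null replicate 2 or WT replicate 2 and within 5000 to 12000 UMIs, and was at 0.09 ± 0.14 in cells with no Mki67 or Top2a UMI.

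Guidance genes went both ways against Maf-positive neurons, 9 of 26 higher and 10 lower. Nrp1, the class 3 semaphorin receptor, was at 70.1, 83.3, 59.7 and 61.9 CPM in members against 12.1, 27.0, 9.92 and 14.4 CPM (log2 fold change 2.12 ± 0.14, edgeR adjusted p = 2.33e-14). Robo2 was at 83.8, 82.3, 81.9 and 92.8 CPM against 253, 268, 256 and 265 CPM (−1.63 ± 0.06). Sema3c, a ligand of Nrp1 complexes, was at 5.24, 16.2, 10.3 and 12.0 CPM against 2.81, 2.12, 2.65 and 13.4 CPM over all cells (1.23 ± 0.34), so the classes overlapped, and the call was lost without null replicate 2 (0.69, edgeR adjusted p = 0.12) and with no library block (1.26, 0.063). Among cells with no Mki67 or Top2a UMI it was at 15.9, 80.9, 28.3 and 36.1 CPM against 3.95, 2.20, 2.95 and 10.9 CPM (2.92 ± 0.35). Pde1a, a calmodulin-dependent phosphodiesterase, had a log2 fold change of 1.47 ± 0.29 over all cells, and in cells with no Mki67 or Top2a UMI it was at 28.6, 54.7, 93.4 and 78.7 CPM against 11.05, 2.20, 1.97 and 9.36 CPM (3.15 ± 0.28, edgeR adjusted p = 1.17e-23). Sema3c and Pde1a passed the count filter in those cells only through the members and could only come out higher there.

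Against Zic1-positive Nkx2-1 neurons (832 cells with Nkx2-1 at the same limit and any Lhx6), members had less of the ventral factors and more of several interneuron genes. The test called 3198 of 11036 genes (29%), 1535 (13.9%) higher and 1663 (15.1%) lower in members. None of the 9 tested pallidal genes was higher and 6 were lower (median log2 fold change −0.88, against −0.0018 over all genes). Lhx8 was at 195, 158, 214 and 208 CPM against 525, 493, 597 and 531 CPM (log2 fold change −1.44 ± 0.05, edgeR adjusted p = 1.28e-16). Etv1 was at 64.2, 89.6, 69.1 and 77.5 CPM against 130, 158, 124 and 145 CPM (−0.88 ± 0.07). Gbx1 fell by 2.22 ± 0.16 and Lmo3 by 0.58 ± 0.08.

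These decreases also held in cells with no Mki67 or Top2a UMI, where 520 of 7987 genes were called (6.51%; 3.32% higher and 3.19% lower) and 6 of 8 pallidal genes were lower and 1, Kctd12, was higher. Lhx8 was there at 257, 271, 368 and 358 CPM against 777, 573, 754 and 675 CPM (−1.16 ± 0.08). Of the cholinergic list, 5 of 5 tested genes were lower over all cells, Isl1 by 1.43 ± 0.13. Chat, at or near 0 in members, passed the count filter only through the Zic1-positive class. It could only come out lower, so the count of 5 was partly fixed by the filter. Shh, the ventral morphogen, was at 8.79, 9.92, 11.1 and 12.0 CPM in members and 37.1, 55.4, 50.9 and 41.5 CPM in Zic1-positive neurons. Zic2 and Zic4 were lower, but Zic4 overlaps Zic1, which the rule used, on the other strand. Outside the lists, Slc10a4, a vesicular transporter of cholinergic and aminergic neurons, had a log2 fold change of −4.21 ± 0.17, Tgfb2, a growth factor, one of −3.51 ± 0.26 and Dscam, a cell adhesion molecule, one of −3.24 ± 0.23. Like Chat, Slc10a4, Tgfb2, Dscam and Zic4 passed the count filter only through the Zic1-positive class and could only come out lower.

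Npy was at 257, 203, 276 and 216 CPM in members against 80.8, 45.1, 114 and 62.4 CPM in Zic1-positive neurons (log2 fold change 1.72 ± 0.08, edgeR adjusted p = 4.41e-14). Calb1, a calcium-binding protein, was at 36.7, 45.3, 51.0 and 80.7 CPM against 10.4, 20.5, 22.4 and 14.1 CPM, and Nr2f1, a nuclear receptor, rose by 1.55 ± 0.10. In cells with no Mki67 or Top2a UMI Calb1 was at 105, 131, 122 and 207 CPM against 8.63, 10.4, 33.7 and 10.6 CPM (3.18 ± 0.23, edgeR adjusted p = 1.51e-13), and Nr2f1 had a log2 fold change of 3.05 ± 0.19. Gucy1a1, a soluble guanylate cyclase subunit, had one of 1.35 ± 0.09 over all cells and 2.37 ± 0.18 there. Calb1 passed the count filter in those cells only through the members and could only come out higher. Of the interneuron list, 6 of 14 genes were higher and 5 were lower over all cells, and 8 of 13 were higher and 0 lower in cells with no Mki67 or Top2a UMI. Zeb2 rose by 0.91 ± 0.06 and Epha4 by 0.74 ± 0.04 over all cells.

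Between genotypes, few genes differed within the members. St18 was at 14.0, 15.5, 24.7 and 26.9 CPM, with both null libraries below both WT libraries, but the rule capped it at 1 UMI per cell and it is given without a test. edgeR called 10 of 10660 genes (0.0938%), with 1394 at an unadjusted p under 0.05. The 2 called higher in null (0.0188%) were Xist, at 603, 1348, 0 and 0 CPM, and its antisense Tsix. The 8 called lower (0.075%) were Pde1a, Hist1h2bl, Sst, Tmsb15b2, Gm17750 and 3 ribosomal protein genes or copies, Rps27rt, Rps26 and Gm11808, of which the last group shares sequence with near-identical copies and is uncertain.

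Pde1a was at 9.35, 10.3, 26.3 and 27.7 CPM (50, 31, 64 and 69 UMIs in 23, 14, 22 and 24 members), so null was lower in both libraries (log2 fold change −1.62 ± 0.22, edgeR adjusted p = 0.0192). The 5 highest cells held 46.0%, 61.3%, 43.8% and 50.7% of these UMIs. Members with no Mki67 or Top2a UMI, a smaller part of the null members, held 27, 23, 56 and 48 of them. The effect of that mix was not tested. In cells with no Mki67 or Top2a UMI Pde1a was at −1.27 (edgeR adjusted p = 0.16), and there 2 of 7223 genes were called (0.0277%), both higher in null (0.0277%). In the few cells with none of Sox2, Hes5, Mki67 and Top2a it was at −0.0527 (edgeR adjusted p = 0.985). Hist1h2bl, a replication-dependent histone gene of a multigene family, was at 39.8, 62.8, 109 and 103 CPM (−1.23 ± 0.18, edgeR adjusted p = 0.0297). Tmsb15b2 overlaps 2 near-identical thymosin genes and is uncertain, at 34.8, 43.0, 65.0 and 76.3 CPM (−1.03 ± 0.16). It lies on the X chromosome, and the part of sex in its difference was not tested. Without WT replicate 2 Tmsb15b2 and Gm11808 were not called, and without either WT library Rps26 and Gm17750 were not (−0.91, −0.99, −0.86 to −0.78 and −0.95 to −0.93). Rps27rt was not called among male cells (−1.12, edgeR adjusted p = 0.067).

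Sst, the somatostatin gene, was at 103, 104, 188 and 212 CPM (log2 fold change −1.10 ± 0.15, edgeR adjusted p = 0.0216). This sum came from few cells. An Sst UMI was present in 45, 14, 19 and 24 members, or 8.04%, 5.83%, 6.38% and 7.67%, and in 9.52%, 10%, 0% and 4.35% of microglia-like cells. Those were 2 of 21, 1 of 10, 0 of 14 and 1 of 23 microglia-like cells, too few to place the member shares above or below that background. Sst was at 23.7, 5.25, 0 and 4.12 CPM in the microglia-like cells. The share of members with an Sst UMI is not read as a difference between genotypes. The 5 highest cells of each library held 60.0%, 96.2%, 88.4% and 87.9% of its Sst UMIs, and the single highest cell held 105, 156, 156 and 175 of 550, 315, 456 and 527 UMIs. Without that cell the level was 83.2, 52.6, 123 and 141 CPM. The call was lost without WT replicate 2 (−1.01, edgeR adjusted p = 0.0702), among male cells (−0.89, 0.384) and in cells with no Mki67 or Top2a UMI (−0.43, 0.769).

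**Figure D5:**
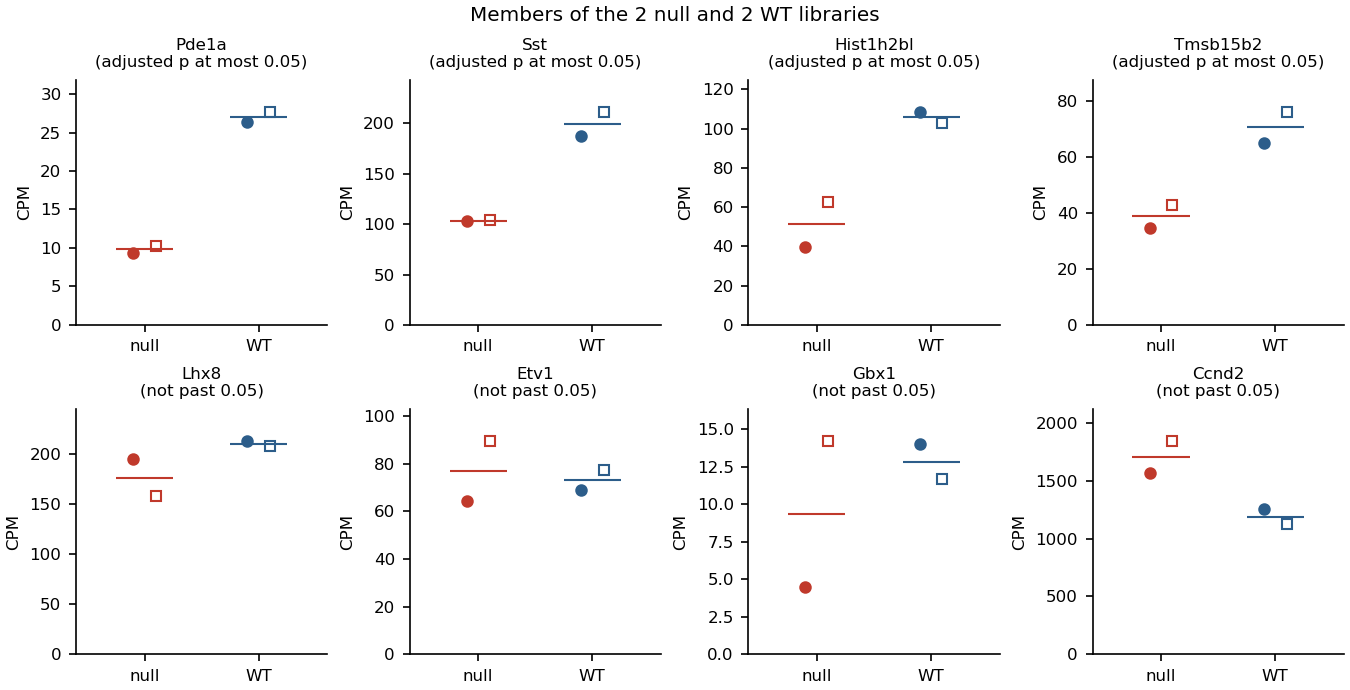
Levels in CPM of 8 genes in the members of each library, null in red and WT in blue, with circles for replicate 1, squares for replicate 2 and lines for the group means. The 4 genes in the upper row passed an adjusted p of 0.05 in edgeR and the 4 in the lower row did not.

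None of the 9 tested pallidal genes was called between genotypes (median log2 fold change −0.22, against −0.0015 over all genes). Lhx8 was at 195, 158, 214 and 208 CPM, with both null libraries below both WT libraries (−0.40 ± 0.17, edgeR adjusted p = 0.351), and it passed the threshold when null replicate 1 was left out (−0.63). Etv1 was at 64.2, 89.6, 69.1 and 77.5 CPM (−0.11 ± 0.16, edgeR adjusted p = 0.835). Gbx1 was at 4.49, 14.2, 14.0 and 11.6 CPM, where null replicate 1 was the lowest and null replicate 2 the highest (−0.76 ± 0.41), and it passed without null replicate 2 (−1.60).

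The progenitor list had 0 of 13 genes called (median log2 fold change 0.33). Ccnd2 was at 1567, 1848, 1257 and 1125 CPM, both null libraries above both WT libraries (0.36 ± 0.13, edgeR adjusted p = 0.297), and it passed when either null library was left out (0.42 and 0.31). Of the cortical interneuron list 1 of 13 was called, Sst, and 0 of 9 GABA neuron, 0 of 26 guidance and 0 of 18 axon genes were. Depth and the share of members with at least 5 Mki67 and Top2a UMIs, given above, were also higher in both null libraries, and their part in these values was not tested.

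The number of calls between genotypes depended on which libraries entered. Without null replicate 1 it was 1821 and without null replicate 2 it was 683, where the lone null library was taken to vary like the WT libraries. Among male cells, taken as those with at least 1 Y-linked and at most 1 Xist UMI, 52 of 9935 genes were called. With library totals in place of TMM factors, 163 were called, 109 higher and 54 lower, and the median of all genes shifted to 0.15.

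Whether the genotypes differed in members by another amount than in Nkx2-1-negative Lhx6 neurons was tested as an interaction. edgeR called 1 of 10688 genes (0.00936%), with 629 at an unadjusted p under 0.05. That gene was Btg2, an antiproliferative gene of neurogenic divisions, at 98.2, 111, 99.97 and 95.2 CPM in members and 63.3, 79.8, 25.5 and 16.9 CPM in the other class. The interaction was −1.67 ± 0.25 (edgeR adjusted p = 0.0302), and the libraries differed in the Nkx2-1-negative class rather than in the members. It was lost when any 1 library was left out, with values from −1.94 to −1.44.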

How the data were processed

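Reads had been mapped and counted with Cell Ranger, and for each library the authors deposited unfiltered UMI counts for every barcode, per the file headers, with no normalization. The headers name Cell Ranger 4 and the submitters' processing notes Cell Ranger 5.0.1 and GRCm38. Positions were taken from GENCODE M21, where 99.6% of 32285 gene identifiers were found. Matrices held 92984713, 89094919, 72640295 and 70991150 UMIs.

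The members, the gene lists and the tests were chosen with earlier results of these data known. The mitochondrial limit was that of the study. Counts were summed over the cells of a class in each library and tested in edgeR 4.0.16 (R 4.3.3) with filterByExpr, TMM and the quasi-likelihood F-test at a Benjamini-Hochberg adjusted p of 0.05. Library was a block between classes. The 8 genes of the rule were given no test. DESeq2 1.42.0, other normalizations and filters, and leaving out each library were alternatives, with those on Mki67 and Top2a added after seeing the data. Named genes were those of the lists and, per direction, the 10 (members against Nkx2-1-negative neurons) or 5 with the largest fold. The latter were taken among called genes with 1 direction in all libraries and at least 20 CPM. Rule, ribosomal, mitochondrial, Y-linked and unnamed genes, Xist and Tsix were left out, but other X-linked genes were not. Named genes outside this rule (Sfta3-ps and Mbip over all cells, the ribosomal genes, Gm17750 and Tsix) were named after their values were seen. Scrublet (scanpy 1.11.5) called 0% to 0.0665% of barcodes and so did not work, and removing the highest doublet scores at 0.8% per 1000 cells was an alternative. On simulated data for the genotype comparison, 73% of genes changed by 1 and 95% of those changed by 2 on the log2 scale were recovered. For the interaction these were 42% and 85%. Every simulated gene had the same dispersion, so recovery in the real libraries may be lower.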

Additional observations from a re-analysis of the deposited data

Results flagged for a closer look

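Btg2 stood out because the genotype difference in members was not that in Nkx2-1-negative Lhx6 neurons. The test of that difference gave −1.67 on the log2 scale. The member levels spanned 95.2 to 111 CPM, and those of the other class were 63.3 and 79.8 in null and 25.5 and 16.9 CPM in WT. DESeq2 did not call it (−1.66, adjusted p over 0.99), nor did edgeR in cells with no Mki67 or Top2a UMI (−0.69).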

How the results depend on the processing

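Leaving out 1 library moved the share difference of −0.456 between −3.70 and 2.79 percentage points. It was −3.39 with Nkx2-1 at 2 or more UMIs, −1.41 at 5000 or more UMIs per cell and −0.852 after thinning to 3000 UMIs. It reversed with Nkx2-1 at 5 or more UMIs (1.83), among all barcodes past the limits (0.11) and for members with at least 5 Mki67 and Top2a UMIs (1.34). Genes called between genotypes numbered 10, and leaving out 1 library gave 12 to 1821. Library totals gave 163, no filter 275, DESeq2 117 (of 2390 with an adjusted p), male cells 52, no St18 limit 44, cells with none of Sox2, Hes5, Mki67 and Top2a 1, and cells with no Mki67 or Top2a UMI 2.

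Against Nkx2-1-negative neurons DESeq2 called 2671, cells with none of the 4 transcripts 64 of 4044, and cells with no Mki67 or Top2a UMI 547. Against Maf-positive neurons DESeq2 called 3015, the fit with no library block 3297 and cells with no Mki67 or Top2a UMI 984, and against Zic1-positive neurons 1456, 1325 and 520. The interaction was called for 53 genes without a filter on low counts, 0 in DESeq2 (82 at an unadjusted p under 0.05), 0 without the highest doublet scores (592), 0 in cells with no Mki67 or Top2a UMI (312), and 0 to 5 when 1 library was left out (377 at an unadjusted p under 0.05 in the fit with 0). The cause of these shifts was not tested.

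Named genes turned direction as follows. Between genotypes Sst was at 4.26 in cells with none of the 4 transcripts, and Etv1 at 0.055 with library totals, −0.28 to 0.075 when 1 library was left out, 0.20 in male cells and 0.12 in cells with no Mki67 or Top2a UMI. Against Nkx2-1-negative neurons, cells with no Mki67 or Top2a UMI had Hes5 at −0.12, Sst at 1.67, Npy at 0.75 and Gad1 at 0.23, and cells with none of the 4 transcripts had Gbx1 at 0.12, Sst at 1.34, Npy at 1.66, Gad1 at 0.34 and Gad2 at 0.10. Cells of 5000 to 12000 UMIs had Sst at 0.14 and Npy at 0.20, and leaving out 1 library gave Sst at −0.41 to 0.15, Npy at −0.32 to 0.030 and Lhx8 at −0.033 to 0.53. Against Maf-positive neurons Sst was at 1.18 and Etv1 at 0.086 in cells with no Mki67 or Top2a UMI. Against Zic1-positive neurons Sst was at 1.27 in those cells, 0.23 at 5000 to 12000 UMIs and −0.39 to 0.083 when 1 library was left out. Of 1133 values of single genes under alternatives, 1038 kept direction and side of the threshold.

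No paired analysis was possible because the labels of null and WT libraries carry no replicate numbers. With 2 libraries per genotype the precision is limited by their number, and counting intervals do not cover the spread between pools.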
